A study of Mus musculus with 28 samples.

Results

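Neuronal nuclei of the germ-free (GF) colon were compared with neuronal nuclei of the GF small intestine, to find which transcripts differ between gut segments when no microbiota is present. The comparison uses 6 of the 28 libraries of the series, 3 colonic and 3 small intestinal, and every gene with enough counts to test. All mice were C57BL/6, and all had received AAV9-CaMKII-EGFPKASH by vein 5 weeks earlier, a virus that drives a green fluorescent protein anchored in the nuclear envelope from a CaMKII promoter. The longitudinal muscle with its attached myenteric plexus was peeled off, nuclei were released, and fluorescent (neuronal) and non-fluorescent (non-neuronal) nuclei were sorted for nuclear RNA sequencing. These libraries are set beside 4 colonic and 4 small intestinal neuronal libraries of specific pathogen-free (SPF) mice, and 3 colonic and 3 small intestinal non-neuronal libraries of GF mice. Only neurons in which this virus and promoter are active can be in the neuronal fraction, and the labels give no sex or age and do not tie libraries to animals, so p-values measure the spread between libraries, which may be technical in part.

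The myenteric plexus is the layer of the enteric nervous system between the muscle coats, and its motor neurons, interneurons and intrinsic sensory neurons drive peristalsis. Excitatory motor neurons release acetylcholine and tachykinins, and inhibitory motor neurons release nitric oxide and vasoactive intestinal peptide. Interstitial cells of Cajal, the pacemakers of gut muscle, lie beside these neurons and are not neurons themselves.

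Each neuronal library of the comparison held 2968138 to 3763983 counts in the colon and 3079338 to 5990698 in the small intestine, and 11891 to 13745 colonic against 13493 to 15679 small intestinal genes reached 10 counts. Levels are given as CPM (counts of the gene per 1000000 counts of the library), and a count of 0 allows up to 3 counts, which is 0.501 to 1.01 CPM in these libraries (counting error only). Mitochondrially encoded genes took 0.867% to 1.06% of colonic and 3.47% to 6.08% of small intestinal counts. All 12 pan-enteric neuron markers were detected in both segments, and their summed level was 5001 to 6052 CPM in the colon and 4930 to 5572 CPM in the small intestine, against 138 to 1359 CPM in GF non-neuronal libraries. Smooth muscle markers summed to 457 to 660 CPM in colonic and 907 to 1361 CPM in small intestinal neuronal libraries, and 6 markers of interstitial cells of Cajal to 299 to 443 and 472 to 700 CPM. Most of the latter sum was Etv1, which neurons also express, so it does not measure these cells alone. In GF non-neuronal libraries the same 6 markers summed to 482 to 669 CPM in the colon and 311 to 525 CPM in the small intestine. In bulk nuclei, fewer cells of a type and less RNA per cell cannot be told apart.

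Colonic neuronal libraries held more RNA of the phosphodiesterase gene Pde1c, the anoctamin gene Ano5, the membrane collagen gene Col25a1, the kinase gene Wnk4 and the serotonin receptor gene Htr2b. They held less of the vesicular acetylcholine transporter gene Slc18a3, of the transcription factor genes Tcf7l2 and Satb1, of mitochondrially encoded RNA, and of 3 interstitial cell markers. edgeR's quasi-likelihood test with Benjamini-Hochberg adjustment called 52 of 17298 genes tested (0.301%) at an adjusted p below 0.05, 23 higher (0.133%) and 29 lower (0.168%) in the colon. In all 52 the 3 colonic and the 3 small intestinal libraries did not overlap, as was also so for 14.9% of all genes tested (5.58% with the colonic libraries all higher and 9.36% all lower). Of the 23 higher genes, 13 carry a name and 10 a number only, and 8 of those 10 lie inside Kcnip4, Col25a1 or Unc5d. All 52 kept their direction when each of the 6 libraries was left out in turn, but only 18 were still called each time. Between 24 and 58 genes were called in these fits. As in the main fit that gave the 52 calls, the SPF neuronal libraries stayed in them for the shared estimate of spread. With only the 6 compared libraries in the fit, 28 genes were called.

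Pde1c (chromosome 6, 56069804 to 56569103, GRCm38) encodes a calmodulin-dependent enzyme that breaks down cyclic AMP and cyclic GMP. Its level was 587, 601 and 511 CPM in colonic replicates 1, 2 and 3 and 67.5, 37.5 and 15.0 CPM in small intestinal replicates 1, 2 and 3. Every colonic library was above every small intestinal one, by 14.1-fold in the means (edgeR log2 fold change 3.89, SE 0.41, adjusted p = 1.02e-05). The colonic values were close to each other, at 566 ± 48.1 CPM (SD, n = 3), while the small intestinal ones spread over 40.0 ± 26.4 CPM (SD, n = 3). Pde1c and Tcf7l2 were the only genes called under all 15 alternatives run. Pde4c (chromosome 8, 70723720 to 70751186), of the phosphodiesterases specific for cyclic AMP, went the other way. It stood at 2.39, 0 and 0.885 CPM in colonic and 138, 28.1 and 77.8 CPM in small intestinal replicates (edgeR log2 fold change -6.09, SE 1.1, adjusted p = 0.00759), and was not called without colonic replicate 2 or 3 (adjusted p = 0.0576 and 0.0662). These were the only 2 of 19 phosphodiesterase genes tested that were called (0.301% of all genes tested were), and the median log2 fold change of the 19 was -0.02, beside 0.02 over all genes tested.

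Anoctamins are membrane proteins that act as calcium-activated chloride channels or lipid scramblases. Of 9 tested, 2 were called, in opposite directions, beside 0.301% of all genes tested. Ano5 (chromosome 7, 51511029 to 51598709) measured 170, 304 and 109 CPM in the colon and 2.92, 17.4 and 6.51 CPM in the small intestine (edgeR log2 fold change 4.48, SE 0.60, adjusted p = 2.63e-04). Ano1 (chromosome 7, 144588549 to 144751974), the chloride channel of interstitial cells of Cajal, measured 0.266, 1.35 and 0.590 CPM in the colon and 52.9, 24.2 and 76.5 CPM in the small intestine (edgeR log2 fold change -6.12, SE 0.96, adjusted p = 0.0022). The colonic Ano1 values rest on 7 counts in all 3 libraries. Both calls held with each library left out, and the other 7 anoctamins were not called.

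Wnk4, Ryr1 and Sh3rf3 were also higher in colonic libraries, with more spread between replicates. Wnk4 (chromosome 11, 101260567 to 101277409), a kinase that regulates the cation-chloride cotransporters of the SLC12 family, measured 139, 43.5 and 249 CPM in the colon and 5.2, 11.6 and 11.5 CPM in the small intestine (edgeR log2 fold change 3.92, SE 0.72, adjusted p = 0.00759). It was the only called member of 13 tested WNK and SLC12 genes. Ryr1 (chromosome 7, 29003344 to 29125179), a calcium release channel of the sarcoplasmic and endoplasmic reticulum, measured 59.8, 48.5 and 103 CPM against 2.92, 4.29 and 8.68 CPM (edgeR log2 fold change 3.70, SE 0.77, adjusted p = 0.0267). Sh3rf3 (chromosome 10, 58813359 to 59138916), a RING-domain scaffold protein, measured 198, 146 and 261 CPM against 52.9, 62.4 and 32.2 CPM (edgeR log2 fold change 2.08, SE 0.40, adjusted p = 0.0125). For these 3 genes the lowest colonic library still stood above the highest small intestinal one. Wnk4 lost its call without colonic replicate 3 or small intestinal replicate 1 (adjusted p = 0.0686 and 0.0748), and Sh3rf3 without colonic replicate 3 or small intestinal replicate 1 or 3 (adjusted p = 0.071, 0.0748 and 0.157). Ryr1 lost it without colonic replicate 3 or small intestinal replicates 1, 2 or 3 (adjusted p = 0.0949, 0.185, 0.16 and 0.055), and reads of 3 genes on its opposite strand may be counted with it.

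Htr2b (chromosome 1, 86099026 to 86111970) encodes a Gq-coupled serotonin receptor. It measured 294, 410 and 292 CPM in the colon and 95.2, 86.8 and 88.6 CPM in the small intestine (edgeR log2 fold change 1.91, SE 0.35, adjusted p = 0.00759). The small intestinal values averaged 90.2 ± 4.40 CPM (SD, n = 3), and the call was lost without any one of them (adjusted p = 0.0557, 0.0746 and 0.0568 without replicates 1, 2 and 3). Htr2b was the only one of 10 serotonin receptor genes tested that was called, the median of the 10 was -0.27, and the gene overlaps Psmd1 on the other strand.

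Nfatc1 and Fdps were higher in the colon on values that differed widely between colonic libraries. Nfatc1, a transcription factor activated by calcineurin, measured 85.0, 376 and 79.1 CPM in the colon and 23.1, 34.3 and 31.5 CPM in the small intestine (edgeR log2 fold change 2.63, SE 0.57, adjusted p = 0.0356). Colonic replicate 2 was the high one, and without it the adjusted p was 0.447. Without small intestinal replicates 1, 2 or 3 it was 0.231, 0.138 and 0.148. Fdps (chromosome 3, 89093588 to 89101959), which makes the farnesyl diphosphate from which sterols and prenyl groups are built, measured 35.1, 162 and 103 CPM against 22.7, 12 and 10.7 CPM (edgeR log2 fold change 2.77, SE 0.60, adjusted p = 0.0356). Its call was lost without colonic replicate 2 or 3 (adjusted p = 0.241 and 0.0761) or small intestinal replicate 1, 2 or 3 (0.0748, 0.209 and 0.246). Fdps was the only called gene of 20 in cholesterol synthesis, where 15 fitted differences were above 0 (50.8% over all genes tested) and the median was 0.45.

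**Figure D1:**
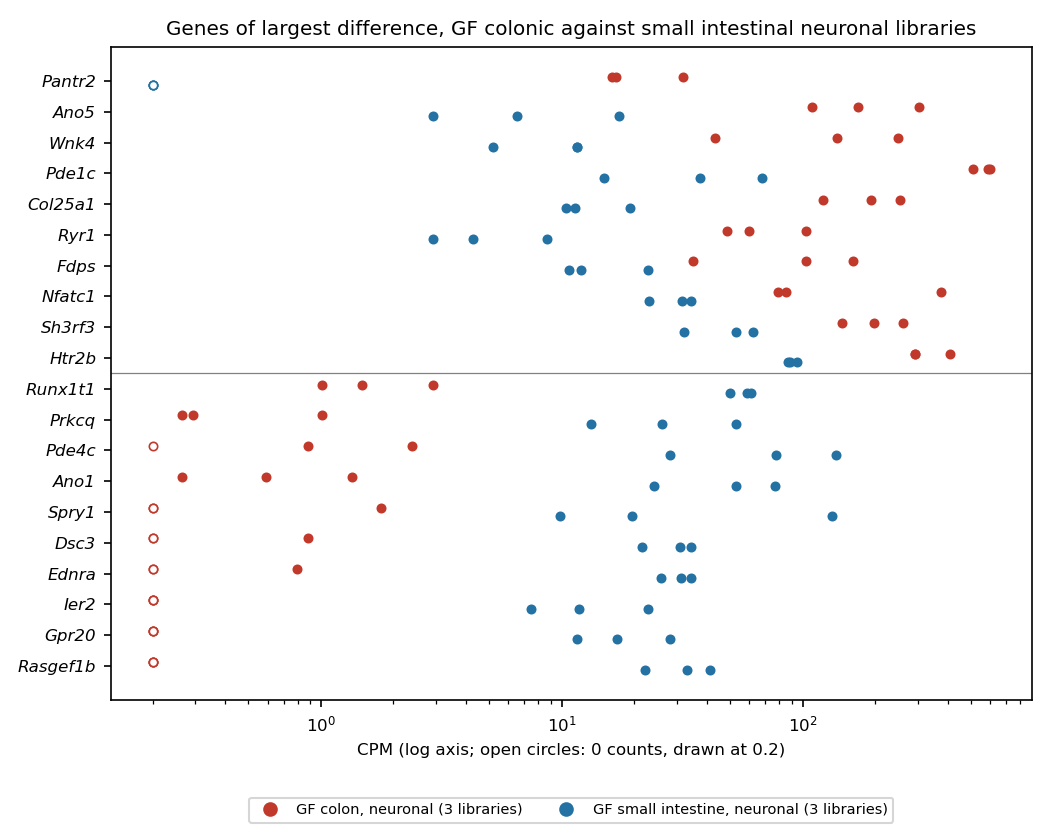
Level of the 20 named genes that differed most between GF colonic and small intestinal neuronal libraries, 10 higher and 10 lower in the colon, in CPM on a log axis, with 1 point per library (red, 3 colonic; blue, 3 small intestinal; open circles, 0 counts). In each of the 20 genes the colonic points stand clear of the small intestinal ones, and Pde1c has colonic values from 511 to 601 CPM against 15.0 to 67.5 CPM.

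Several transcripts that were higher in the colon lay together inside Col25a1, Kcnip4 and Unc5d. These 3 genes were singled out after the values were seen. Over all genes tested, 5.58% had every colonic library above every small intestinal one and 0.133% were called higher. Col25a1 (chromosome 3, 130131501 to 130599877), which encodes a transmembrane collagen of neurons, measured 122, 192 and 254 CPM in colonic and 10.4, 19.3 and 11.4 CPM in small intestinal libraries (edgeR log2 fold change 3.82, SE 0.51, adjusted p = 2.63e-04). The 3 transcripts annotated inside it and tested were higher in all 3 colonic libraries, 2 of them called, with a median log2 fold change of 5.03. Summed, they reached 147, 239 and 69.0 CPM in the colon and 5.2, 5.14 and 1.50 CPM in the small intestine. These lie on the same strand, outside the exons of Col25a1, so reads of its unspliced RNA cannot be told apart from reads of theirs. Col25a1 was the only called gene of 32 collagens tested, whose median was -0.23.

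Kcnip4 encodes a cytoplasmic partner of A-type potassium channels and spans more than 1 megabase of chromosome 5. It was singled out, with its numbered transcripts, after the values were seen. Of 31 genes annotated over it, 27 were tested, and all 27 had a positive fitted difference (50.8% of all genes tested did), with a median log2 fold change of 1.61 and a range of 0.35 to 4.14. Without colonic replicate 3, 26 of 27 were positive. Of the 27, 5 were called and 20 had every colonic library above every small intestinal one. Over all genes tested, 0.133% were called higher and 5.58% had every colonic library above. By annotation, 23 are of type TEC, gene models still awaiting experimental evidence. Of the 27, 22 lie on the strand of Kcnip4 and 25 outside its exons. Reads of unspliced Kcnip4 RNA cannot be told apart from reads of such transcripts, so the 27 are not independent. Their summed level was 3370, 4798 and 4706 CPM in the colon and 1594, 1098 and 1039 CPM in the small intestine. The most abundant was Gm10048, at 921, 684 and 1164 CPM against 317, 228 and 194 CPM (edgeR log2 fold change 1.94, SE 0.28, adjusted p = 7.92e-04). Gm42769 showed 184, 456 and 184 CPM against 50.01, 42.6 and 20.5 CPM (edgeR log2 fold change 2.92, SE 0.47, adjusted p = 0.0022). Kcnip4 itself, counted over its exons, stood at 75.2, 75.8 and 90.6 CPM against 103, 20.6 and 25.2 CPM and was not called (log2 fold change 0.76, edgeR adjusted p = 0.734), with small intestinal replicate 1 above all colonic libraries.

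The same direction was seen for the Kcnip4 transcripts in other libraries, of which the SPF neuronal ones share the estimate of spread with the GF neuronal comparison. In SPF neuronal libraries all 27 differences were positive and 6 were called, beside 51.3% positive and 0.249% called higher over all genes tested. The median of the 27 was 1.3, and their sum was 2901 to 5297 CPM in the colon against 874 to 1941 CPM in the small intestine. In GF non-neuronal libraries all 27 were positive and 11 were called, beside 50.7% positive and 0.219% called higher over all genes tested there. The median of the 27 was 5.52, with sums of 1584 to 2103 CPM in the colon against 42.3 to 116 CPM in the small intestine. The pan-enteric neuron markers were also higher in those colonic non-neuronal libraries, at 908 to 1359 CPM against 138 to 269 CPM, and their part in that result was not tested.

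Unc5d, a netrin receptor gene also singled out after the values were seen, held 3 tested transcripts on its own strand, all outside its exons. All 3 were higher in every colonic library, as were 5.58% of all genes tested. As in Col25a1, reads of unspliced Unc5d RNA cannot be told apart from reads of these transcripts. Their sum was 381, 517 and 413 CPM in the colon and 47.4, 67.7 and 46.2 CPM in the small intestine. Of these transcripts, 1 was called (Gm45652), beside 0.133% of all genes tested called higher. Unc5d itself was not called (log2 fold change 1.52, edgeR adjusted p = 0.378), although its colonic values of 36.9, 69.7 and 62.2 CPM lay above the small intestinal 13.96, 29.4 and 16.9 CPM.

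**Figure D2:**
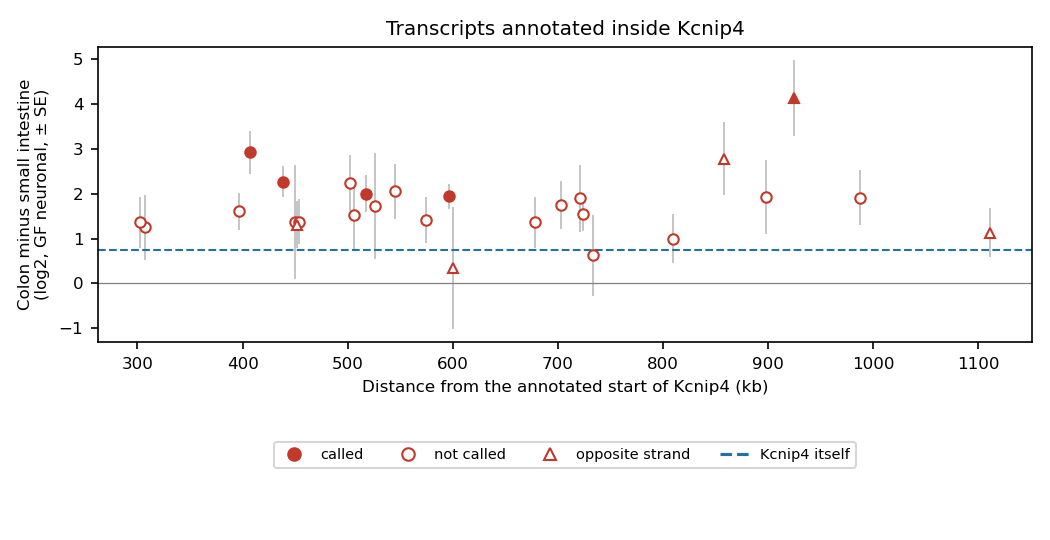
Fitted difference between colon and small intestine (log2, GF neuronal libraries, bars ± SE) of the 27 tested transcripts annotated over Kcnip4, against their distance from its annotated start in kilobases. All points lie above 0, 5 are called (filled), triangles lie on the opposite strand, and the dashed line is Kcnip4 itself at 0.76.

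Noncoding genes next to regulators of neuronal identity were among the genes higher in the colon. Pantr2 (chromosome 1, 42707061 to 42713454), which lies beside the POU-domain transcription factor gene Pou3f3, measured 16.7, 32 and 16.2 CPM in the colon and had 0 counts in all 3 small intestinal libraries. It was at least 22.2-fold higher (edgeR adjusted p = 0.00759), and its call was lost without small intestinal replicate 1, 2 or 3 (adjusted p = 0.0511, 0.0651 and 0.0823). Pou3f3 itself was 95.9, 80.5 and 82.9 CPM in the colon and 18.2, 4.93 and 2.003 CPM in the small intestine, without overlap, but was not called (edgeR log2 fold change 3.46, SE 0.79, adjusted p = 0.0546). Hand2os1 (chromosome 8, 57281117 to 57324233), transcribed against Hand2, averaged 823 ± 59.6 against 363 ± 59.8 CPM (SD, n = 3 each; edgeR log2 fold change 1.21, SE 0.25, adjusted p = 0.0267). Its call was lost without any one of the 6 libraries, with adjusted p from 0.060 to 0.217. Hand2, a regulator of enteric neuron differentiation, did not pass (log2 fold change 0.25, adjusted p = 0.875). The annotated span of Hand2os1 overlaps exons of Hand2 on the other strand, so reads of each gene may be counted with the other. Snhg11, a small nucleolar RNA host gene abundant in neurons, averaged 13460 ± 2159 against 6621 ± 319 CPM (edgeR log2 fold change 1.05, SE 0.17, adjusted p = 0.00279). Zfp536, a zinc finger repressor of neuronal differentiation, averaged 284 ± 100.3 against 86.6 ± 13.1 CPM (edgeR log2 fold change 1.74, SE 0.37, adjusted p = 0.0327). The Zfp536 call was lost without colonic replicate 1 or 2 (adjusted p = 0.0845 and 0.173) or small intestinal replicate 1, 2 or 3 (0.174, 0.204 and 0.0917).

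Promoter sequences are shown for 4 of these genes, 3 that were higher and 1 that was lower in the colon, as the stretch from 250 bases before to 50 bases after a RefSeq start (GRCm38.p6). Capitals mark the dioxin response element core GCGTG, on either strand, which is the core bound by the aryl hydrocarbon receptor.
Pantr2, chr1:42713405-42713704, minus strand: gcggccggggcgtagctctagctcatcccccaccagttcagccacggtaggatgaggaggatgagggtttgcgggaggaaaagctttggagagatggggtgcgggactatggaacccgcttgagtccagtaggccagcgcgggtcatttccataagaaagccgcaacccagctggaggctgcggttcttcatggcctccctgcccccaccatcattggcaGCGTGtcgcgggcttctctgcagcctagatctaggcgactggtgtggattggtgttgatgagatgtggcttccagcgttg
Col25a1, chr3:130180595-130180894, plus strand: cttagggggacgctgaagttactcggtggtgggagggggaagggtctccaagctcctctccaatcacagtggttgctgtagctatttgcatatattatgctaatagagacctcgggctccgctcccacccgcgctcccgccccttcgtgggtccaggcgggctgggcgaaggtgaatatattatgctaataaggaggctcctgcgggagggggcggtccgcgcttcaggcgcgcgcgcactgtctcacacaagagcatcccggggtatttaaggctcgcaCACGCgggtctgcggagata
Ano5, chr7:51510779-51511078, plus strand: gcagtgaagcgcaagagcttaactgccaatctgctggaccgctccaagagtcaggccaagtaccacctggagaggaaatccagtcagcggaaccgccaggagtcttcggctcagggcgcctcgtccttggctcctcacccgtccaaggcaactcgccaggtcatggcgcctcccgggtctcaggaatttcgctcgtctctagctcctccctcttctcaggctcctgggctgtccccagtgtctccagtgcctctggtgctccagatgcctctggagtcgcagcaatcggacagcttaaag
Ano1, chr7:144738524-144738823, minus strand: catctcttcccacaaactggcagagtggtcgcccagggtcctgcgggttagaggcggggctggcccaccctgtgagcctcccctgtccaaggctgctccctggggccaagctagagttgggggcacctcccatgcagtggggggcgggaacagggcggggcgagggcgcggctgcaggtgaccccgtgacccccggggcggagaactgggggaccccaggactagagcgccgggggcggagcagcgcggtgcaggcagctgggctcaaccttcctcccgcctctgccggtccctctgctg
Pantr2 and Col25a1 hold 1 core each, and the windows of Ano5 and Ano1 hold none. The core is in a window of 8 of 12 higher and 8 of 15 lower called genes with a promoter in the table, and in 54.6% of 10888 tested genes. The letters TTTATNG, a motif of posterior HOX proteins, are in 3 of 12 higher, 1 of 15 lower and 8.33% of tested genes. A match is a description of the letters only.

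Of 6 markers of interstitial cells of Cajal, 3 were called lower in colonic neuronal libraries, beside 0.168% of all genes tested. These were Ano1, Prkcq and Gpr20, at or near 0 in the colon. All 6 had a fitted difference below 0 (50.8% of all genes tested were above 0), and the median was -4.74, or -3.95 with absent genes at their bound. Leaving out 1 library gave medians from -3.77 (without small intestinal replicate 1) to -6.72 (without colonic replicate 2). Gpr20 (chromosome 15, 73694604 to 73707505), an orphan receptor, had 0 counts in all 3 colonic libraries and 28.3, 11.6 and 17.0 CPM in the small intestine, at least 18.7-fold lower (edgeR adjusted p = 0.00559). Prkcq (chromosome 2, 11172108 to 11301222), protein kinase C theta, measured 0.266, 1.01 and 0.295 CPM in the colon, 5 counts in all, and 52.9, 13.3 and 26.0 CPM in the small intestine (edgeR log2 fold change -5.80, SE 1.00, adjusted p = 0.00404). The Ano1, Prkcq and Gpr20 calls held with each library left out but were lost with limma-voom (adjusted p = 0.309, 0.315 and 0.123). With only the 6 compared libraries Prkcq and Gpr20 were lost as well (edgeR adjusted p = 0.0993 and 0.108). Kit, the receptor that defines these cells, spread too widely to pass, at 0, 29.0 and 0.590 CPM against 96.1, 15.4 and 50.4 CPM (log2 fold change -2.43, edgeR adjusted p = 0.685). Etv1, which neurons also express, overlapped between segments, at 298 to 411 CPM in the colon and 408 to 528 CPM in the small intestine (log2 fold change -0.31, adjusted p = 0.769). In GF non-neuronal libraries, where these cells are sorted, Ano1 measured 114 to 180 CPM in the colon and 78.8 to 165 CPM in the small intestine (edgeR adjusted p = 0.822). The means of 143 and 124 CPM were higher in the colon, while the fitted log2 fold change, after scaling by factors of 1.14 to 1.36 in colonic and 0.542 to 1.04 in small intestinal libraries, was -0.52. The part of such cells in the neuronal fraction of the small intestine was not tested.

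Of 10 smooth muscle markers 0 were called. All 10 had a fitted difference below 0 (50.8% of all genes tested were above 0), and the median was -0.73. It was -1.40 without colonic replicate 1, and 9 of 10 were below 0 without colonic replicate 2 or small intestinal replicate 1 and with limma-voom. Myh11, the smooth muscle myosin, stood at 253, 138 and 182 CPM in the colon and 532, 342 and 403 CPM in the small intestine (log2 fold change -1.12, edgeR adjusted p = 0.327). Of the fibroblast list, 0 of 7 were called (median -0.997), and of the glial list 0 of 5. Glial markers summed to 9.30 to 59.6 CPM in colonic and 9.51 to 30.5 CPM in small intestinal libraries, with Gfap at 0 in all 6. Macrophage markers reached 41.2 CPM in 1 small intestinal library, and mesothelial markers at most 6.21 CPM. The part of these cell types in the differences was not tested.

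The other genes of largest fall were detected in every small intestinal library and near 0 in the colon. Rasgef1b (chromosome 5, 99217426 to 99729065), an exchange factor for Ras-family proteins, had 0 colonic counts and 22.1, 41.1 and 33.1 CPM in the small intestine, at least 31.8-fold lower (edgeR adjusted p = 0.00171), a call that held with each library left out. Runx1t1 (chromosome 4, 13743436 to 13893649), a transcriptional corepressor, measured 2.92, 1.01 and 1.48 CPM against 50.01, 58.7 and 61.3 CPM (edgeR log2 fold change -4.91, SE 1.08, adjusted p = 0.0391). Dsc3, a desmosomal cadherin, had 3 colonic counts, all in replicate 3, against 21.4, 34.5 and 30.9 CPM. Its pooled ratio was 101 (counting interval 34.4 to 493, edgeR adjusted p = 0.0267). Colonic levels of these 3 genes never came near the small intestinal ones, but with so few colonic counts the size of the falls is uncertain. Runx1t1 lost its call without any one library (adjusted p from 0.0745 to 0.158), and Dsc3 without any but colonic replicate 3 (0.0511 to 0.107).

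Ednra and Spry1 encode parts of receptor signalling. Ednra (chromosome 8, 77663031 to 77724464), the endothelin A receptor, had 3 colonic counts, all in replicate 1, and 31.2, 25.9 and 34.4 CPM in the small intestine, a pooled ratio of 104 (counting interval 35.3 to 506, edgeR adjusted p = 0.0378). It was the only called gene of 10 tested in RET and endothelin signalling. Ret, the GDNF co-receptor of enteric neurons, was 647, 639 and 695 CPM in the colon and 418, 487 and 399 CPM in the small intestine, without overlap and not called (log2 fold change 0.63, edgeR adjusted p = 0.360). Spry1 (chromosome 3, 37639947 to 37644598), an inhibitor of receptor tyrosine kinase signalling, measured 0, 0 and 1.77 CPM against 132, 9.86 and 19.5 CPM (edgeR log2 fold change -6.38, SE 1.39, adjusted p = 0.0357). Small intestinal replicate 1 stood far above replicates 2 and 3, and without it the adjusted p was 0.428. Without colonic replicate 1 or 2 or small intestinal replicate 3 it was 0.121, 0.143 and 0.0547. Ednra lost its call without colonic replicate 2 or 3 (adjusted p = 0.15 and 0.122) or small intestinal replicate 1, 2 or 3 (0.0846, 0.0746 and 0.119).

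Ier2 was the one called gene of the activity list, the genes that neurons switch on within minutes of stimulation. It had 0 colonic counts and 7.47, 11.8 and 22.9 CPM in the small intestine, at least 13.9-fold lower (edgeR adjusted p = 0.0462). All 15 tested activity genes had a fitted difference below 0, with a median of -0.70, while 50.8% of all genes tested were above 0. With DESeq2 size factors 14 of 15 were below 0, and 11 of 15 were without colonic replicate 3. In SPF neuronal libraries the median was 0.18. Egr1 measured 481, 434 and 429 CPM in the colon and 503, 780 and 928 CPM in the small intestine (log2 fold change -0.70, edgeR adjusted p = 0.847), and Fos 81.0, 48.9 and 3.83 CPM against 50.01, 62.4 and 47.4 CPM. The Ier2 call was lost without any one library, with adjusted p from 0.0748 to 0.199.

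Of 24 transcription factor genes of enteric neurons, 1 was called, while 3 had every colonic library above and 6 every colonic library below the small intestinal ones. Over all genes tested the shares were 0.301% called, 5.58% above and 9.36% below, and no set test was run. Satb1, a chromatin organiser, averaged 22.7 ± 12 CPM in the colon and 119 ± 10.4 CPM in the small intestine (SD, n = 3 each; edgeR log2 fold change -2.37, SE 0.47, adjusted p = 0.0177). Its call was lost without colonic replicate 2 or small intestinal replicate 1 or 3 (adjusted p = 0.0856, 0.0511 and 0.11). Tcf7l2 (chromosome 19, 55741820 to 55933654), a nuclear effector of Wnt signalling that was on no list, was 27.9, 9.77 and 31.0 CPM in the colon and 196, 186 and 125 CPM in the small intestine (edgeR log2 fold change -2.84, SE 0.49, adjusted p = 0.00404). Its highest adjusted p with a library left out was 0.0292. Ppnr, an intronic transcript on the same strand inside Tcf7l2, averaged 6.12 against 100.1 CPM (adjusted p = 0.0498), a call lost without any library but small intestinal replicate 2 (0.0832 to 0.287). Reads of unspliced Tcf7l2 RNA cannot be told apart from reads of Ppnr. The median of the 24 transcription factor genes was -0.27.

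Hox genes, which set position along the gut, showed no called difference among the 17 tested of paralogue groups 1 to 8, whose median was -0.53. Hoxd3, the most abundant, measured 144, 274 and 177 CPM in the colon and 193, 159 and 141 CPM in the small intestine (adjusted p = 0.837). None of the 16 genes of groups 9 to 13 had enough counts to test. Together they reached 0.531, 0.674 and 0 CPM in GF colonic neuronal libraries, at or under the floor of 3 counts, and 0.429 to 2.34 CPM in the small intestine. In GF colonic non-neuronal libraries the same 16 genes summed to 212 to 510 CPM, against 1.09 to 13.2 CPM in small intestinal ones, and in SPF colonic neuronal libraries to 3.33 to 30.2 CPM.

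All 10 cholinergic and tachykinin genes had counts in both segments, while Npy, of the inhibitory neuron list, had 0 counts in every colonic library. Slc18a3, the vesicular acetylcholine transporter, was the one called gene of 10 cholinergic and tachykinin genes: it measured 2.92, 1.35 and 6.79 CPM in the colon and 41.6, 51.6 and 184 CPM in the small intestine (edgeR log2 fold change -4.67, SE 0.82, adjusted p = 0.00468). It lies inside Chat, the gene of the enzyme that makes acetylcholine, on the same strand and outside its exons. Reads of unspliced Chat RNA therefore cannot be told apart from reads of Slc18a3. Chat was 260, 137 and 173 CPM against 218, 239 and 237.5 CPM (log2 fold change -0.26, edgeR adjusted p = 0.879). The libraries of the 2 segments overlapped for Chat and not for Slc18a3. Without small intestinal replicate 3, the highest, the Slc18a3 call was lost (adjusted p = 0.0899), and in SPF libraries it was 15.2 to 53.6 CPM in the colon and 30.8 to 105 CPM in the small intestine. Tac1, the tachykinin precursor, picked after its values were seen, was 377, 348 and 347 CPM against 212, 111 and 130 CPM, with no overlap and no call (log2 fold change 1.27, edgeR adjusted p = 0.110). Of 8 tested genes of inhibitory neurons 0 were called: Nos1, the nitric oxide synthase of these neurons, measured 1713, 1441 and 1806 CPM in the colon and 679, 1180 and 1086 CPM in the small intestine (log2 fold change 0.77, adjusted p = 0.211). Vip was 212, 256 and 215 CPM against 231, 103 and 206 CPM.

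Channel, adhesion and synaptic families held few or no called genes. None was called among 63 potassium channel subunits (median -0.00), 32 sodium and calcium channel subunits (-0.05), 53 axon guidance genes (-0.09), 53 clustered protocadherins (-0.08), 29 synaptic vesicle genes (0.22) and 32 glutamate and GABA receptor genes (0.21). Kcnq3, a subunit of the M-type potassium channel, was 1172, 1513 and 1252 CPM in the colon and 1085, 829.5 and 540 CPM in the small intestine (log2 fold change 0.73, edgeR adjusted p = 0.335). Snap25, a core protein of vesicle fusion, was 1627 to 2320 CPM and 1831 to 1978 CPM (log2 fold change 0.11, adjusted p = 0.920). In edgeR, 1742 genes (10.1%) had an unadjusted p below 0.05 in this comparison, so the absence of calls in a list does not show that its genes are alike.

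Ptprt, a receptor tyrosine phosphatase of synapses, averaged 7.17 ± 7.85 CPM in the colon and 120 ± 20.3 CPM in the small intestine (edgeR log2 fold change -4.05, SE 0.67, adjusted p = 0.00255), and its call held with each library left out. Brinp2, an inhibitor of neural proliferation, averaged 5.41 against 83.0 CPM, Gprin3, a G protein-regulated neurite outgrowth protein, 1.74 against 42.4 CPM, and the matrix protein gene Ccn2 2.27 against 51.8 CPM. Brinp2 lost its call without colonic replicate 1 or 2 or small intestinal replicate 1 (adjusted p = 0.0739, 0.0796 and 0.0748), Gprin3 without any one library (0.062 to 0.13), and Ccn2 without any but colonic replicate 3 (0.0568 to 0.143). Fbxw24 and Fbxw15, F-box genes that neighbour each other on chromosome 9, averaged 39.5 against 266 CPM and 48.7 against 272 CPM (log2 fold change -2.72 and -2.44, edgeR adjusted p = 2.63e-04 and 0.00264). They belong to a family of close copies, so their reads may be shared. Syne2, which encodes the nuclear envelope protein nesprin-2, measured 386, 226 and 386 CPM in the colon and 758, 1098 and 1018 CPM in the small intestine (edgeR log2 fold change -1.50, SE 0.27, adjusted p = 0.00594), and was not called without colonic replicate 2 or small intestinal replicate 3 (adjusted p = 0.05 and 0.0568).

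Mitochondrially encoded RNA was lower in the colon. Over all genes tested, 50.8% of fitted differences were above 0 and 0.168% of genes were called lower. All 12 mitochondrial protein-coding genes tested had a fitted difference below 0 (11 of 12 with limma-voom), and 3 were called. In 10 all colonic libraries lay below all small intestinal ones, as in 9.36% of all genes tested. The median was -2.49, or -2.38 with absent genes at their bound, and -1.58 without small intestinal replicate 3. The fall was not particular to these libraries: the median was -3.16 in SPF neuronal libraries (8 called lower) and -3.18 in GF non-neuronal ones. In GF non-neuronal libraries mitochondrially encoded genes took 4.64% to 10.8% of colonic and 13.4% to 35.6% of small intestinal counts. mt-Co1, a subunit of cytochrome c oxidase, measured 906, 549 and 505 CPM in the colon and 3429, 2096 and 3880 CPM in the small intestine (edgeR log2 fold change -2.25, SE 0.35, adjusted p = 0.0022). mt-Cytb averaged 419 ± 18.6 against 2319 ± 1125 CPM and mt-Nd1 246 ± 105 against 959 ± 340 CPM. The ribosomal RNAs mt-Rnr1 and mt-Rnr2 were also called, at 3269 against 14007 CPM and 4543 against 23249 CPM. The mt-Co1 call held with each library left out, while mt-Rnr2 lost it without colonic replicate 1 or 2 (adjusted p = 0.0613 and 0.138). mt-Cytb lost it without any colonic replicate (0.0847, 0.158 and 0.0709 without 1, 2 and 3), mt-Nd1 without colonic replicate 1 or 3 or small intestinal replicate 3 (0.0832, 0.0709 and 0.157), and mt-Rnr1 without any but small intestinal replicate 2 (0.0613 to 0.16). How much mitochondrial RNA came with the sorted nuclei of each segment was not tested.

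**Figure D3:**
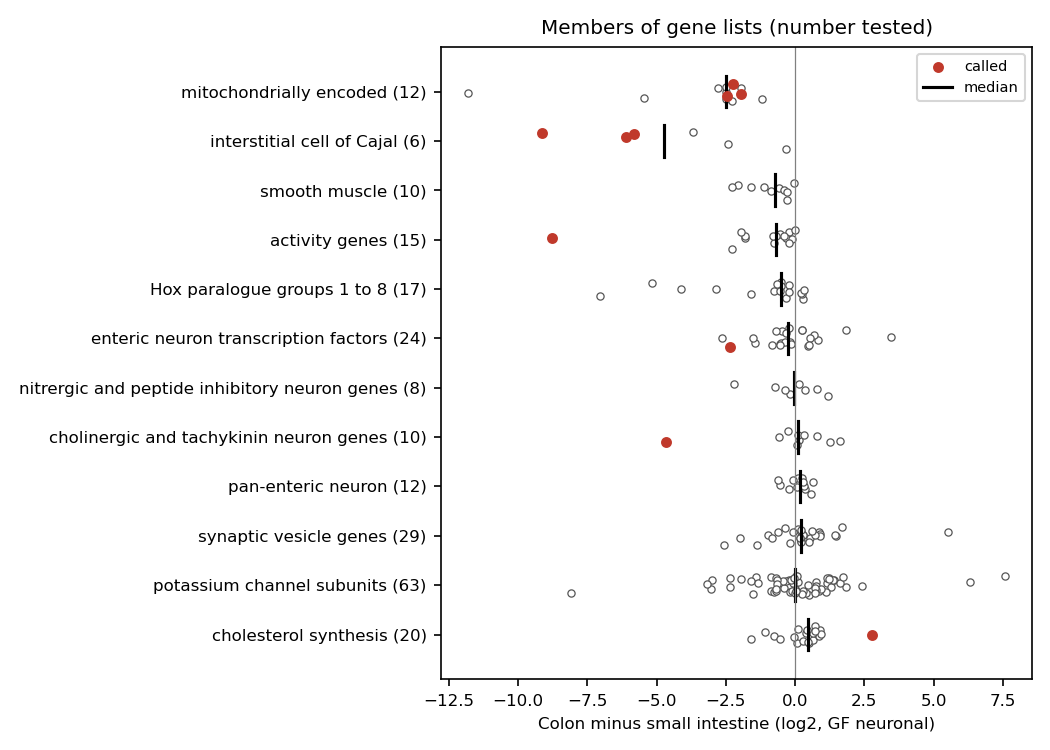
Fitted difference between colon and small intestine (log2, GF neuronal libraries) of each tested member of 12 gene lists, with the number tested in parentheses, called members in red and the median of each list as a black bar. The medians of the mitochondrial and interstitial cell lists stand at -2.49 and -4.74, and that of the pan-enteric neuron list at 0.18 (-0.19 without colonic replicate 1 and -0.00 with limma-voom).

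The same segments were compared in SPF neuronal libraries, which the GF comparison does not use apart from the shared estimate of spread. All 23 genes higher in the GF colon were higher in the SPF colon and 12 were called there, and all 29 lower genes were lower and 16 were called. In that SPF comparison edgeR called 113 genes (0.653%), and 51.3% of all genes had a positive difference. It called 57 to 118 with 1 library left out, and 20 without SPF replicates 3 and 4, which differ from replicates 1 and 2 in Xist. Col25a1 had a log2 fold change of 3.82 in GF and 4.19 in SPF libraries, Ano5 4.48 and 3.67, and Pde1c 3.89 and 2.58, with SPF Pde1c levels of 304 to 414 CPM in the colon and 35.7 to 73.6 CPM in the small intestine. The called genes with the smallest SPF differences included Htr2b, with 170 to 331 CPM in the SPF colon and 86.0 to 127 CPM in the SPF small intestine (log2 fold change 1.00, edgeR adjusted p = 0.139). Rasgef1b stood at 1.95 to 4.36 CPM in the SPF colon, where GF colonic libraries had 0 counts, and Ier2 at 0.557 to 10.3 CPM.

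The difference between GF and SPF in the segment contrast was tested directly as an interaction. In SPF replicates 3 and 4 of both segments Xist, the RNA of the inactive X chromosome, stood at 5594 to 16058 CPM and Y-linked genes at 3.33 to 5.85 CPM, while the other SPF and all GF neuronal libraries had at most 19.5 CPM of Xist and at least 379 CPM of Y-linked genes. The GF and SPF groups thus differ in this respect too, and without those libraries the interaction also called 0 genes. edgeR called 0 of 17298 genes, with a smallest adjusted p of 0.773 and 1070 genes (6.19%) at an unadjusted p below 0.05. limma-voom also called 0, DESeq2 called 60, and edgeR without a low-count filter 22. The named genes of lowest p were Mxra8, Cited2 and Pou3f3. Pou3f3 differed by 3.46 between segments in GF and by 7.95 in SPF (interaction log2 -4.49, SE 1.1, unadjusted p = 3.78e-04). The sizes of the SPF difference and the interaction are uncertain, since SPF small intestinal libraries held 0 to 1.53 CPM of Pou3f3. Mxra8 measured 45.4, 374 and 33.0 CPM and Cited2 74.9, 448 and 23.9 CPM in GF colonic replicates 1, 2 and 3, so replicate 2 alone was high in both.

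**Figure D4:**
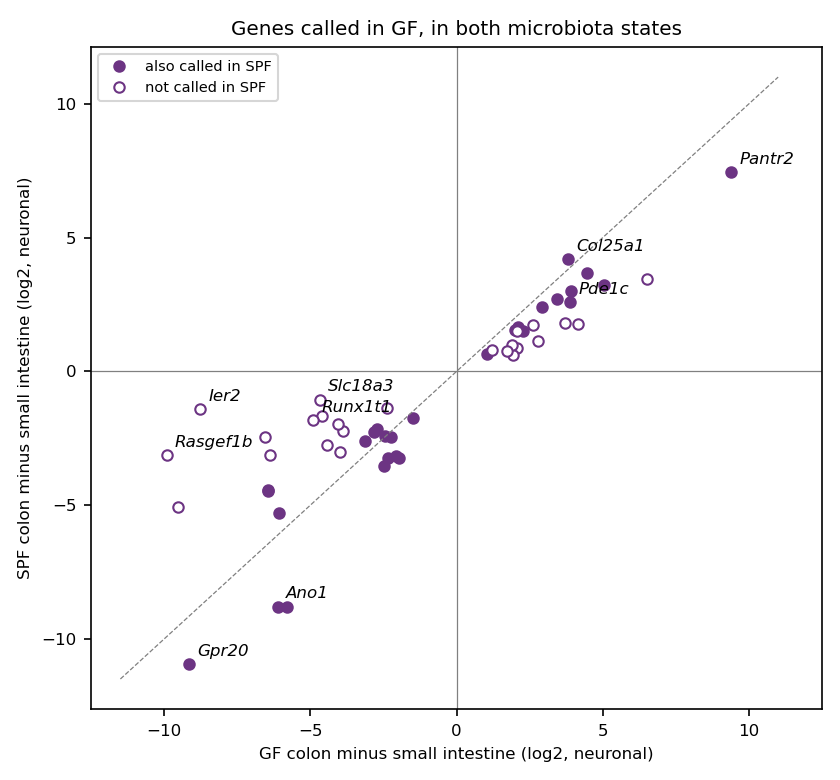
Fitted segment difference (log2, colon minus small intestine) of the 52 genes called in GF neuronal libraries, GF on the x axis and SPF on the y axis, with genes also called in SPF filled and the dashed line marking equal differences. All 23 higher genes lie in the upper right and all 29 lower genes in the lower left quadrant.

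In GF non-neuronal libraries, which are separate libraries, the segment differences of the called genes were less alike. Of 22 higher genes with a value there, 18 had the same sign and 4 were called. Of 28 lower genes 17 had the same sign and 3 were called, which were mt-Nd1, mt-Co1 and mt-Cytb. Of all genes tested there, 50.7% had a positive difference. edgeR called 130 of 18267 genes (0.712%) in that comparison. The interaction between segment and fraction called 44 of 20964 genes (0.21%; 0.0239% positive and 0.186% negative), and 6 of the 52 were among them, on a test that uses the same neuronal libraries. Pde1c measured 38.6 to 51.7 CPM in colonic and 77.0 to 148 CPM in small intestinal non-neuronal libraries, the opposite order to the neuronal fraction (interaction log2 5.71, edgeR adjusted p = 1.91e-04). Ano1 and Slc18a3 were called too (interaction log2 -5.67 and -10.89, edgeR adjusted p = 0.0174 and 0.0145), while Pde4c was low in the colon in both fractions, at 0 to 3.18 CPM in colonic and 32.4 to 58.5 CPM in small intestinal non-neuronal libraries (log2 fold change -5.47, edgeR adjusted p = 0.0518).

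**Figure D5:**
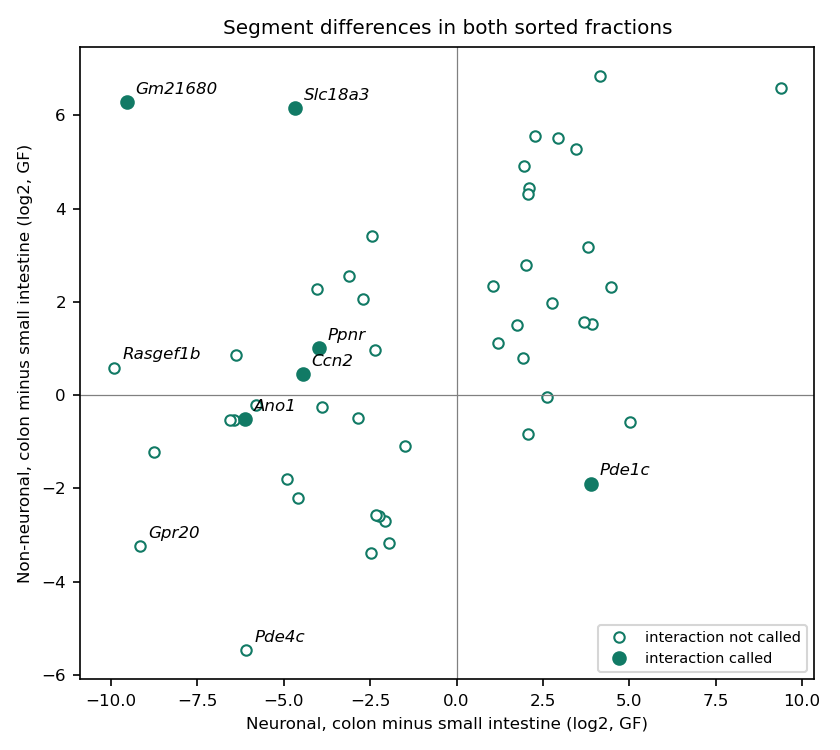
Fitted segment difference (log2, colon minus small intestine) of the called genes in GF neuronal (x axis) and GF non-neuronal libraries (y axis), with genes whose difference between fractions was called filled. Pde1c lies in the lower right quadrant, higher in colonic neuronal but not in colonic non-neuronal libraries, and Slc18a3 in the upper left.

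In a fit with all 28 libraries, 33 genes were called (4 higher and 29 lower), and 12 of the 52 remained called, among them Pde1c, Tcf7l2, Ano1, Prkcq, Gpr20, Pde4c and Runx1t1. Ano5, Col25a1, Rasgef1b and Slc18a3 did not (adjusted p = 0.113, 0.0735, 0.1 and 0.259). Others moved further from the threshold, among them Snhg11, Fbxw24, Zfp536, Fbxw15, Sh3rf3 and Gm10048 (edgeR adjusted p = 0.837, 0.649, 0.629, 0.626, 0.578 and 0.537). With only the 6 compared libraries in the fit, 28 genes were called (13 higher and 15 lower) and 25 of the 52 remained. limma-voom kept 31 of the 52, and among those it lost were Slc18a3, Pde4c, Spry1, Runx1t1 and Nfatc1 (adjusted p = 0.284, 0.292, 0.337, 0.152 and 0.152).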

How the data were processed

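RNA of sorted nuclei was amplified and sequenced as 75 bp single-end reads, per the labels' protocols. The values are RSEM expected counts per gene as the authors deposited them, in 1 table of 51912 genes by 28 libraries. The submitters' processing notes name the build GRCm38 and the tools DESeq2 1.10.1, STAR 2.5.2 and RSEM 1.3.0, and the strand setting and annotation release are not given in the sources used here. Of the expected counts, 7.48% were not whole and were rounded. Gene IDs were matched to GENCODE M21 symbols (51719 matched, and the other 193 hold 0.102% of counts).

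Group differences were tested with edgeR 4.0.16 (R 4.3.3; quasi-likelihood, TMM scaling, genes filtered by group, all 14 neuronal libraries sharing 1 estimate of spread), with Benjamini-Hochberg adjustment over all genes tested and a threshold of 0.05. The 14 non-neuronal libraries were fitted alone, and the segment by fraction interaction over all 28. limma 3.58.1, DESeq2 1.42.0, other filters and scalings, other sets of libraries, a block for the replicate number and single libraries left out were the alternatives, and the procedure was tested on simulated data. CPM were computed from library totals, depend on gene length and are not compared between genes. Values in every library were printed for the 10 genes of largest change in each direction with a mean of at least 5 CPM. Lists without a called member are shown by their most abundant members. Gene lists, members and tests were chosen with earlier results of these data known. Intervals cover counting error only. Pooled-count ratios carry a 95% interval. Promoters are RefSeq windows, whose start can differ from the annotated gene end.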

Additional observations from a re-analysis of the deposited data

Results flagged for a closer look

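Among 40 groups of SPF libraries looked at for the 20 genes shown by library, 5 held 1 library far from the others. The rule flags about 1 in 20 groups of normally distributed values. CPM, some of them near 0, need not be so distributed, so 5 of 40 cannot be read against that rate. Ano1 reached 679 CPM in SPF small intestinal replicate 1, with the next library at 107 CPM, and Gpr20 reached 156 CPM in the same library, with the next at 44.3 CPM. Both are markers of interstitial cells of Cajal. Ednra stood at 16.4 CPM in SPF colonic replicate 3, with the next at 2.07 CPM. Fdps stood at 39.3 CPM in SPF small intestinal replicate 2, with the next at 24.6 CPM. Pantr2 stood at 0.251 CPM, 1 count, in SPF small intestinal replicate 1 and at 0 in the other 3 libraries, a pattern that the rule flags whatever its size.

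For 6 of the 52 genes the difference between colon and small intestine itself differed between neuronal and non-neuronal GF libraries in edgeR's interaction test, given as neuronal minus non-neuronal on the log2 scale with adjusted p. Pde1c differed by 5.71 (1.91e-04), Ano1 by -5.67 (0.0174), Slc18a3 by -10.89 (0.0145), Ccn2 by -5.01 (0.0454), Ppnr by -5.02 (0.0454) and Gm21680 by -15.85 (0.0189). For Slc18a3 and Gm21680 the size depends on libraries at or near 0 counts.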

How the results depend on the processing

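All 52 genes kept their direction under all 15 alternatives run, and 52 were still called with DESeq2, 52 with its size factors in edgeR, 52 without a low-count filter, 50 with a mean of at least 2 CPM and 31 with limma-voom. DESeq2 called 447 genes (179 higher, 268 lower), edgeR without a filter 173 (88 and 85), limma-voom 56 (45 and 11), the 6 compared libraries alone 28 (13 and 15) and all 28 libraries 33 (4 and 29). With 1 library left out, 24 to 58 genes were called, 10 to 31 higher and 14 to 31 lower. The SPF comparison called 509 with DESeq2, 186 with limma-voom, 298 without a filter, 20 without the SPF libraries set apart by a sex-linked transcript, and 57 to 118 with 1 library left out. The microbiota interaction called 60 with DESeq2 and 22 without a filter. The non-neuronal comparison called 576 with DESeq2, 232 with limma-voom, 303 without a filter, 76 from the compared libraries alone, 309 from all 28, and 44 to 163 with 1 left out. The fraction interaction called 572, 20, 296 and 105 in the first 4 of these settings, and 16 to 116 with 1 left out. Causes were not tested.

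With the replicate block, 66 genes were called (25 higher, 41 lower), and 207 in the non-neuronal comparison. Of the 52, 46 remained called with it, and Fdps, Nfatc1, Zfp536, Spry1, Ier2 and Gm45652 did not (adjusted p = 0.153, 0.11, 0.0888, 0.06, 0.114 and 0.0604). Same-numbered colonic and small intestinal neuronal libraries did not deviate together (r from -0.0289 to 0.0301 in GF and from -0.0106 to 0.0481 in SPF), although in SPF the numbers follow Xist. Non-neuronal pairs were not checked. Relative to edgeR without the block, limma-voom moved the median log2 fold change of all genes by -0.164 and the block by -0.170. Genes with few colonic counts have uncertain sizes of fall.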
